A study of Mus musculus with 6 samples.

Results

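The mitosis, spindle and kinetochore genes described here are 56 genes chosen by symbol for their known roles in cell division, and all 56 were found once among the 22322 genes of the deposited table. RNA had been sequenced from wild-type (WT) mouse neural stem progenitor cells (NSPCs) in a conditioned medium setting, 24 h after PTN (3 libraries) or after PBS, the vehicle, titled Control (3 libraries). PTN is given only as an abbreviation and is read here as pleiotrophin, a secreted heparin-binding growth factor. Both groups were wild type, and no other allele or agent is named for them. The amount of PTN, the age and region of origin of the cells and the strain are not stated in the sources used here. Nothing in the labels says that the replicates came from different cultures. The p-values below thus set the difference between groups against the spread among these libraries, and that spread may be technical.

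Neural stem and progenitor cells divide in culture, and in most cells the genes of mitosis are transcribed late in the cell cycle, in G2 and mitosis. Cyclin B bound to Cdk1 starts mitosis, kinetochores join chromosomes to spindle microtubules, and the spindle checkpoint holds back the anaphase-promoting complex until each chromosome is attached. Kinesins and the chromosomal passenger complex then move and separate the chromosomes, and the cell is cut at cytokinesis. Transcription of these genes is known to be driven by B-Myb (Mybl2) and FoxM1 together with the MuvB complex. MuvB binds a promoter element called the CHR, the cell cycle genes homology region. NF-Y binds CCAAT boxes in many of the same promoters.

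The libraries held 19267764 to 26341745 expected counts each, and a member had between 83 and 14043 counts in a library, so none rested on few reads. Values are TMM-scaled CPM, library-size-scaled counts, unless given as FPKM, the deposited value scaled by transcript length and library depth. Of 12 markers of neural stem and progenitor cells all were detected, with sums of 4575 to 5693 CPM in Control and 5725 to 6835 CPM in PTN. Sox2 averaged 166 and 214 CPM and Nes 722 and 988 CPM in Control and PTN. Not all of the 12 rose: log2 fold changes, PTN minus Control, were positive for 8 and negative for 4, with 1 called higher and 0 lower. Microglial markers were near the floor, 8 of 10 of them under 1 CPM in every library, and their sum lay at 39.1 to 41.1 CPM in Control and 43.1 to 49.8 CPM in PTN. Neuronal markers summed to 269 to 404 and 328 to 535 CPM, most of it from Map2, with 1 of 9 tested genes called higher and 0 lower. Ependymal and choroid plexus markers summed to 76.1 to 94.6 and 64.5 to 113 CPM, with Tmem212 at 0 throughout. The sum of the astrocyte markers was lower in PTN, at 9184 to 9417 CPM in Control and 3647 to 7372 CPM in PTN. Of the 8, 3 were called lower and 0 higher, beside 3.06% and 4.93% of all tested genes. Their log2 fold changes were negative for 5 and positive for 3. All PTN values lay below all Control values for 4 markers (17.1% of all tested genes) and above them for 1 (15.7% of all tested genes). Among oligodendrocyte lineage markers 2 of 7 tested genes were called lower, and the sums overlapped, at 1320 to 1511 and 1133 to 1497 CPM. The sums of endothelial and mural markers (47.5 to 57.3 against 19.1 to 35.2 CPM, 1 of 5 tested genes lower) and of fibroblast markers (79.3 to 100.1 against 36.9 to 54.6 CPM, 3 of 8 lower and 1 higher) were also lower in PTN. Both lists hold Pdgfrb and had the same largest fall, 5.62-fold, so they are not independent. Log2 fold changes were positive for 2 of the 5 and 3 of the 8 tested genes. The part of these markers in the results below was not tested.

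After PTN, 19 of the 56 genes were lower and none was higher at an edgeR adjusted p under 0.05 over all 13161 genes tested, which is the threshold for a call throughout. That is 33.9% of the members, against 3.06% of all tested genes called lower and 4.93% called higher (7.99% either way). At an unadjusted p under 0.05 the test found 28 members (50%), beside 27% of all tested genes. The DESeq2 Wald test called 23 members lower (41.1%) and 0 higher, and 5.88% of all tested genes lower. The 23 were the same 19 and Cdk1, Cenpn, Foxm1 and Racgap1. The log2 fold change, PTN minus Control, was negative for 46 members and had a median of -0.45, beside 0.03 over all tested genes. All 3 PTN values lay below all 3 Control values for 27 members (17.1% of all tested genes) and above them for 1, Pttg1 (15.7% of all tested genes), while the groups overlapped for 28. The 19 calls were of similar size, from 1.54-fold for Birc5 to 2.01-fold for Spc24. Less RNA of these genes per cell and fewer dividing cells cannot be told apart in bulk RNA.

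Summed over the 56 genes, expression was 4351, 5364 and 5167 CPM in Control 1 to 3 and 4712, 3168 and 3240 CPM in PTN 1 to 3. Control 1 and PTN 1 overlap in this sum, in which long transcripts such as Mki67 and Top2a weigh more. On the per-length FPKM scale the sums did not overlap, at 1819 to 1972 in Control and 1105 to 1539 in PTN. PTN 2 was the lowest of the 6 libraries for 32 of the genes and PTN 3 for 19. Within PTN, PTN 1 was the highest for 39. The coefficient of variation of a member had a median of 15.7% in Control and 23.1% in PTN.

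**Figure D1:**
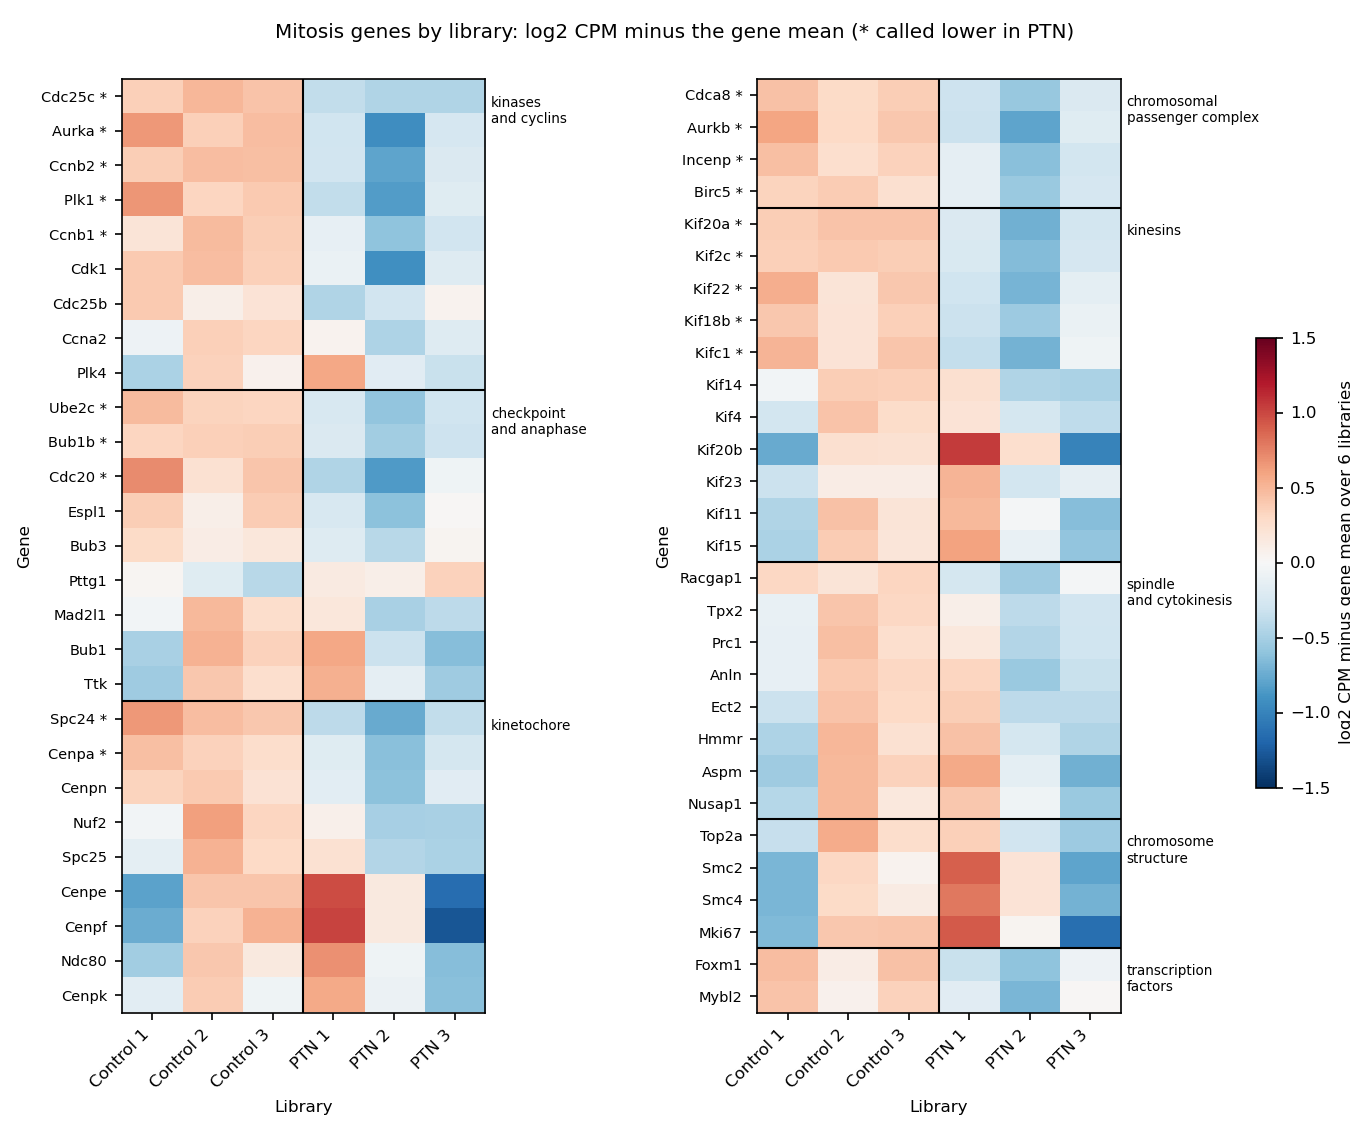
Log2 CPM of each of the 56 genes in each library, minus the mean of that gene over the 6 libraries, with red for higher and blue for lower; columns are libraries, rows are genes in 8 functional groups, and asterisks mark the 19 genes called lower. Most marked rows are red in all Control columns and blue in all PTN columns, while many unmarked rows, such as Cenpe, Cenpf, Kif20b and Mki67, are blue in Control 1 and red in PTN 1.

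The promoters of the called genes of smallest p are shown because the search described next turns on their letters. RefSeq promoters (GRCm38.p6, 250 bases before to 50 after the start) were matched by symbol for 47 of the 56 genes, 52 promoters in all; none was matched for Ccna2, Kif20a, Tpx2, Aurkb, Incenp, Cdc25c, Smc4, Spc24 and Foxm1. The 250 bases before the start are printed 5′ to 3′ in the direction of transcription, and capitals mark CHR matches (TTTGAA or TTCGAA) and CCAAT matches on either strand, so that TTCAAA and ATTGG are the elements read on the other strand. Ube2c lies at chr2:164769679-164769928 on the plus strand, Bub1b at chr2:118597961-118598210 on the plus strand, Cdca8 at chr4:124936918-124937167 on the minus strand, Aurka at chr2:172370571-172370820 on the minus strand and Kif2c at chr4:117178773-117179022 on the minus strand. Cdc20, at chr4:118437344-118437593 on the minus strand, and Mki67, at chr7:135716380-135716629 on the minus strand, were added after their values were seen, the first a called and the second an uncalled gene.
Ube2c promoter: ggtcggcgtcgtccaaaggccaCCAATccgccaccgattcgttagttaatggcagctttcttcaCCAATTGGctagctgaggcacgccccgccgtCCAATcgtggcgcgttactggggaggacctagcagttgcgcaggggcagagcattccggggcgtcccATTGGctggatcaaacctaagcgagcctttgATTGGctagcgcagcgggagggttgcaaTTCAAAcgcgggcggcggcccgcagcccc
Bub1b promoter: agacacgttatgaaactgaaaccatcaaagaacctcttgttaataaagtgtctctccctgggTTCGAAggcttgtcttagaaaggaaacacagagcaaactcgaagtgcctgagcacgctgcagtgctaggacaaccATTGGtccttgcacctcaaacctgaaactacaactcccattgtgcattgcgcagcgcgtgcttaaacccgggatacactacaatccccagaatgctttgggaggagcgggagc
Cdca8 promoter: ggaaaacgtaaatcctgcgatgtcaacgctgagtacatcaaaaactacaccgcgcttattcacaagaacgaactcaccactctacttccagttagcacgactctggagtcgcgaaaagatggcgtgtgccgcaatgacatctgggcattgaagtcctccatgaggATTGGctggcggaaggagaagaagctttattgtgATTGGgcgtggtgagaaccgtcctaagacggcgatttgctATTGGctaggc
Aurka promoter: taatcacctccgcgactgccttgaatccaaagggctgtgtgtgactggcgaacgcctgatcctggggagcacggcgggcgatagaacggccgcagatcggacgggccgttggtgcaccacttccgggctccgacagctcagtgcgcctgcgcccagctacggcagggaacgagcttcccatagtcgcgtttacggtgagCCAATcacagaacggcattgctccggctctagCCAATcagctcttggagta
Kif2c promoter: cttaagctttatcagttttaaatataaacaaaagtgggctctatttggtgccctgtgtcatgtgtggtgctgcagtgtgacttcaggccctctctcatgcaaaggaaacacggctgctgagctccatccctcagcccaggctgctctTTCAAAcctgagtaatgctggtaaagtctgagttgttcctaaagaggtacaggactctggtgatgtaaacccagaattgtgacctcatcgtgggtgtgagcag
Cdc20 promoter: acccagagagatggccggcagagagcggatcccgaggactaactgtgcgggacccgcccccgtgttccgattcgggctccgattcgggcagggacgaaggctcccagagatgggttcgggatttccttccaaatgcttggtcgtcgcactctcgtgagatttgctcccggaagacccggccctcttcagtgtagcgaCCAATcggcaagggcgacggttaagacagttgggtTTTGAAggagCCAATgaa
Mki67 promoter: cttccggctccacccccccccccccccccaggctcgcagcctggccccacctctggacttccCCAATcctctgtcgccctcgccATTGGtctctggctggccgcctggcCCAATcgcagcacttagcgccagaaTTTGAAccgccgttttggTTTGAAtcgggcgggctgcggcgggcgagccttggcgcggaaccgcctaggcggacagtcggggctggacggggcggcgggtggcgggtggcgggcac

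In these letters the CHR began 29 bases before the start of Ube2c, 18 before that of Cdc20 and 103 before that of Kif2c, and in Mki67 there were matches at 116 and 98 bases before it. Bub1b had one match 188 bases before the start and another 41 bases after it. In Cdca8 and Aurka the matches began 14 and 33 bases after the start, beyond the stretch printed. Kif2c had no CCAAT in the window, whereas Ube2c had 6, of which a pair on opposite strands overlap.

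Over the members' promoters the CHR was common. Both strands of the 300-base window were searched, overlapping matches were each counted, and TTCGAA, which reads the same on both strands, was counted once. A CHR stood in 40 of 52 member promoters (76.9%), beside 13.5% of the 13424 promoters of tested genes and 19.2% of all 32851 promoters listed. Within 50 bases of the start it stood in 69.2% of member promoters and 3.40% of those of tested genes. A CCAAT stood in 76.9% and 37.8%, and both elements in 67.3% and 5.66%. Promoters of called members held a CHR in 12 of 14 cases and those of the other members in 28 of 38, a difference that was not tested. A match is a description of the letters, and no binding was measured.

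The kinases, phosphatases and cyclins that start mitosis held 5 called genes of 9, with a median log2 fold change of -0.77. Cdc25c, the phosphatase that activates Cdk1, stood at 21.2, 23.3 and 22.2 CPM in Control 1 to 3 and 12.8, 12.1 and 12.1 CPM in PTN 1 to 3. The 3 PTN libraries lay close together and well below the Control libraries, and Cdc25c was 1.8-fold lower (log2 difference -0.85, SE 0.15, edgeR adjusted p = 0.0125, or 0.0169 to 0.0682 with 1 library left out). Aurka, the kinase of the spindle poles, had 85.5, 69.9 and 75.3 CPM in Control 1 to 3 and 44.2, 28.7 and 45.8 CPM in PTN 1 to 3. It was 1.94-fold lower (log2 difference -0.96, SE 0.20, edgeR adjusted p = 0.0241, or 0.015 to 0.0743 with 1 library left out), with PTN 2 lowest and no overlap. Plk1, the polo-like kinase of mitotic entry and spindle assembly, had 165, 129.9 and 137 CPM in Control 1 to 3 and 80.9, 58.5 and 92.1 CPM in PTN 1 to 3. Its groups did not overlap, PTN 2 was again lowest, and it was 1.87-fold lower (log2 difference -0.90, SE 0.19, edgeR adjusted p = 0.0277, or 0.0128 to 0.0829 with 1 library left out).

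Both B-type cyclins, the partners of Cdk1, were called. Ccnb2 had 61.6, 65.6 and 64.9 CPM in Control 1 to 3 and 39.2, 27.6 and 41.1 CPM in PTN 1 to 3, and all PTN libraries lay below all Control libraries. It was 1.78-fold lower (log2 difference -0.83, SE 0.17, edgeR adjusted p = 0.0247, or 0.0152 to 0.0871 with 1 library left out). Ccnb1 had 173, 210.4 and 196 CPM in Control 1 to 3 and 139, 99.7 and 124 CPM in PTN 1 to 3, again without overlap, and was 1.6-fold lower (log2 difference -0.68, SE 0.17, edgeR adjusted p = 0.0425, or 0.0393 to 0.128 with 1 library left out). Cdk1 itself had 152, 158 and 148 CPM in Control 1 to 3 and 107, 61.1 and 100.5 CPM in PTN 1 to 3. These values did not overlap either and differed by 1.70-fold, with PTN 2 far below the other PTN libraries. Cdk1 was not called by edgeR (log2 difference -0.77, SE 0.21, edgeR adjusted p = 0.0606, or 0.0383 to 0.133 with 1 library left out). Without PTN 2 it was not called either (edgeR adjusted p = 0.0549). Cdc25b did not overlap and was not called (edgeR adjusted p = 0.142), and Ccna2 overlapped (edgeR adjusted p = 0.201). Plk4, the kinase of centriole duplication, had 15.1, 26.7 and 22 CPM in Control 1 to 3 and 31.6, 18.8 and 16.7 CPM in PTN 1 to 3. Its highest value was in PTN 1 and its lowest in Control 1, and the groups overlapped (log2 difference 0.07, SE 0.29, edgeR adjusted p = 0.879); the sign of this change turned negative in fits with GC or length trends removed and without Control 1 or PTN 1.

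**Figure D2:**
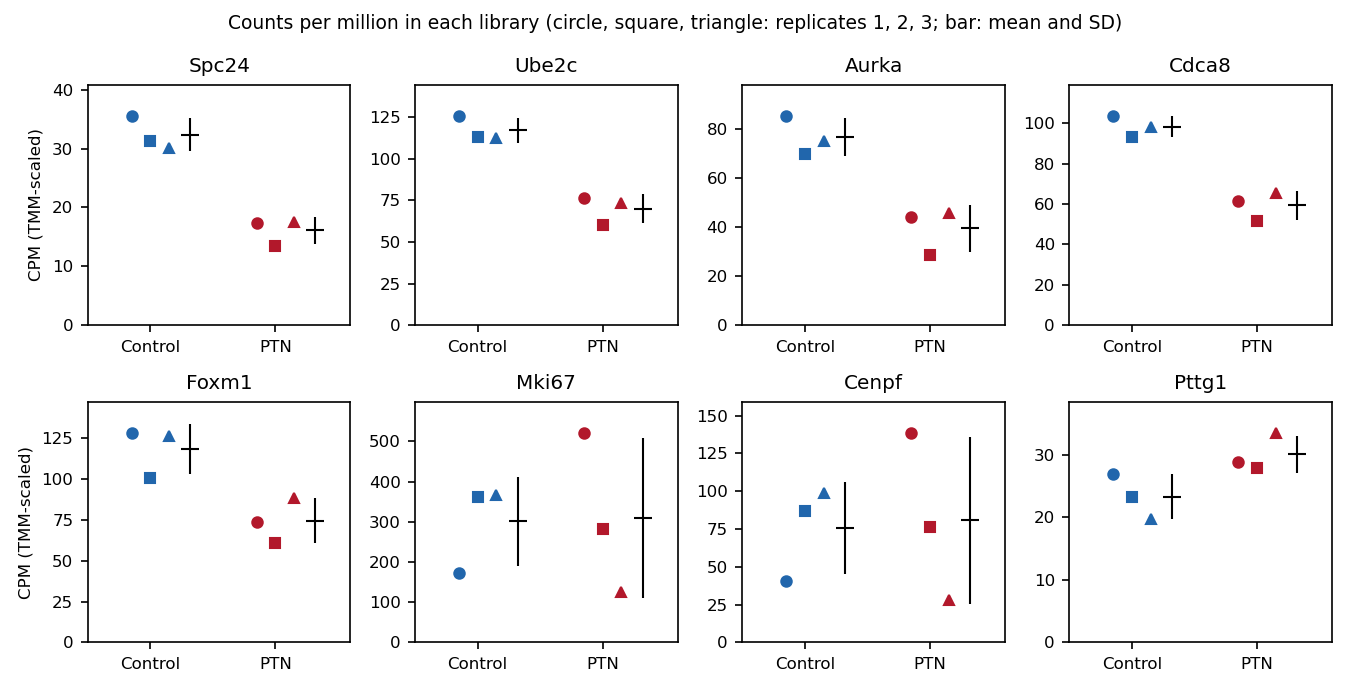
TMM-scaled CPM of 8 mitosis genes, with circles, squares and triangles for replicates 1, 2 and 3 of each group and bars for the mean and SD of 3 libraries; each axis starts at 0. In Spc24, Ube2c, Aurka, Cdca8 and Foxm1 all PTN points lie below all Control points, in Pttg1 above them, and in Mki67 and Cenpf the PTN points run from 125 to 521 and from 28.2 to 138 CPM, around the Control points.

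Of the 9 genes of the spindle checkpoint and of anaphase onset 3 were called lower, with a median of -0.46. Ube2c, the ubiquitin-conjugating enzyme that works with the anaphase-promoting complex, had 126, 113 and 112 CPM in Control 1 to 3 and 76.3, 59.9 and 73.3 CPM in PTN 1 to 3. The Control libraries were close together and all above PTN. Ube2c was 1.68-fold lower (log2 difference -0.74, SE 0.15, edgeR adjusted p = 0.0209, or 0.0203 to 0.0743 with 1 library left out). Bub1b, the checkpoint protein BubR1, had 130.0, 133 and 134 CPM in Control 1 to 3 and 89.4, 72.4 and 83.4 CPM in PTN 1 to 3, with the Control libraries within a few CPM of each other, and was 1.62-fold lower (log2 difference -0.70, SE 0.14, edgeR adjusted p = 0.021, or 0.0229 to 0.0911 with 1 library left out). Cdc20, the activator of the anaphase-promoting complex and target of the checkpoint, had 191, 138 and 156 CPM in Control 1 to 3 and 85.9, 65 and 112 CPM in PTN 1 to 3. Its groups did not overlap, with PTN 3 nearest to Control, and it was 1.84-fold lower (log2 difference -0.88, SE 0.22, edgeR adjusted p = 0.0441, or 0.0118 to 0.129 with 1 library left out).

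Other checkpoint genes were not called. Bub3 (edgeR adjusted p = 0.17) and the separase gene Espl1 (edgeR adjusted p = 0.116) were lower in all PTN libraries, while Mad2l1, Bub1 and Ttk overlapped. Ttk, the checkpoint kinase Mps1, had 13.4, 25.7 and 23 CPM in Control 1 to 3 and 28, 17.7 and 13.4 CPM in PTN 1 to 3, highest in PTN 1 and as low in Control 1 as in PTN 3 (log2 difference -0.07, SE 0.32, edgeR adjusted p = 0.896). Pttg1, which encodes securin, the inhibitor of separase, was the only member whose PTN values all lay above Control, at 27, 23.2 and 19.7 CPM in Control 1 to 3 and 28.9, 27.9 and 33.4 CPM in PTN 1 to 3. The difference was small and not called (log2 difference 0.37, SE 0.17, edgeR adjusted p = 0.203).

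The kinetochore and centromere genes held 2 calls of 9, with a median of -0.44. Spc24, a subunit of the Ndc80 complex that binds microtubules, had 35.5, 31.3 and 30.1 CPM in Control 1 to 3 and 17.3, 13.4 and 17.6 CPM in PTN 1 to 3. Every PTN library was well below the lowest Control library, and Spc24 was 2.01-fold lower (log2 difference -1.01, SE 0.17, edgeR adjusted p = 0.0103, or 0.00973 to 0.0416 with 1 library left out). It had the largest fold change of the 56 genes and was the only one called whichever library was left out. Cenpa, the histone H3 variant that marks the centromere, had 66.5, 61.8 and 58.5 CPM in Control 1 to 3 and 42.8, 31.4 and 40.3 CPM in PTN 1 to 3, without overlap, and was 1.63-fold lower (log2 difference -0.71, SE 0.16, edgeR adjusted p = 0.0319, or 0.0288 to 0.0893 with 1 library left out).

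The partners of Spc24 in the Ndc80 complex did not pass the test. Nuf2 (log2 fold change -0.60, edgeR adjusted p = 0.132), Spc25 (log2 fold change -0.44, edgeR adjusted p = 0.266) and Ndc80 (log2 fold change 0.04, edgeR adjusted p = 0.949) overlapped between the groups. The sign for Ndc80 turned negative with upper-quartile scaling and with the GC trend removed. Cenpn did not overlap (edgeR adjusted p = 0.0677). Cenpk, of the inner kinetochore, had 5.96, 8.68 and 6.36 CPM in Control 1 to 3 and 9.9, 6.29 and 4.32 CPM in PTN 1 to 3, and PTN 1 was its highest library and PTN 3 its lowest (log2 difference -0.03, SE 0.31, edgeR adjusted p = 0.956). Cenpf, a large kinetochore and nuclear matrix protein, had 41, 87.1 and 98.6 CPM in Control 1 to 3 and 138, 76.2 and 28.2 CPM in PTN 1 to 3. Its coefficient of variation in PTN, 68.3%, was the largest of the 56 genes, with PTN 1 above and PTN 3 below every Control library (log2 difference 0.10, SE 0.51, edgeR adjusted p = 0.907). The sign for Cenpf turned negative with voom, with GC or length trends removed and without Control 1 or PTN 1.

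All 4 genes of the chromosomal passenger complex were called lower, with a median of -0.70. The complex corrects wrong attachments and guides cytokinesis. Cdca8, which encodes borealin, had 104, 93 and 98.3 CPM in Control 1 to 3 and 61.3, 51.4 and 65.5 CPM in PTN 1 to 3 and was 1.66-fold lower (log2 difference -0.73, SE 0.15, edgeR adjusted p = 0.0215, or 0.0153 to 0.088 with 1 library left out). Aurkb, its kinase, had 69.6, 56.8 and 61 CPM in Control 1 to 3 and 36.8, 26.6 and 40.5 CPM in PTN 1 to 3 and was 1.8-fold lower (log2 difference -0.85, SE 0.18, edgeR adjusted p = 0.0281, or 0.0149 to 0.0869 with 1 library left out). The scaffold Incenp had 126, 109.7 and 117 CPM in Control 1 to 3 and 84.1, 59.8 and 76.3 CPM in PTN 1 to 3 and was 1.6-fold lower (log2 difference -0.68, SE 0.16, edgeR adjusted p = 0.0393, or 0.035 to 0.122 with 1 library left out). In these 3 genes PTN 2 was lowest and no PTN library reached a Control library. The same was true of Birc5, which encodes survivin, at 51.6, 53.1 and 48.3 CPM in Control 1 to 3 and 37.4, 27.7 and 34.3 CPM in PTN 1 to 3. It was 1.54-fold lower (log2 difference -0.62, SE 0.16, edgeR adjusted p = 0.0449, or 0.0395 to 0.117 with 1 library left out).

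The kinesins, the microtubule motors, divided into 5 called lower and 6 not called, with a median of -0.43. Kif20a, needed for the central spindle and cytokinesis, had 125, 129.6 and 129.8 CPM in Control 1 to 3 and 82.8, 58.5 and 79.5 CPM in PTN 1 to 3 and was 1.74-fold lower (log2 difference -0.80, SE 0.16, edgeR adjusted p = 0.0229, or 0.0194 to 0.0845 with 1 library left out). Kif2c, a microtubule depolymerase at the centromere, had 69.9, 71.7 and 70.1 CPM in Control 1 to 3 and 46.4, 34.8 and 45.7 CPM in PTN 1 to 3 and was 1.67-fold lower (log2 difference -0.74, SE 0.15, edgeR adjusted p = 0.0247, or 0.0204 to 0.0887 with 1 library left out). In both the Control libraries were close together and PTN 2 was lowest. Kif22, which pushes chromosome arms, had 110.1, 86.1 and 99.3 CPM in Control 1 to 3 and 61.3, 46.5 and 67.8 CPM in PTN 1 to 3 and was 1.68-fold lower (log2 difference -0.75, SE 0.18, edgeR adjusted p = 0.0385, or 0.0201 to 0.12 with 1 library left out). Kif18b, at microtubule plus ends, had 55.6, 48.5 and 54.1 CPM in Control 1 to 3 and 33.7, 28.8 and 39.3 CPM in PTN 1 to 3 and was 1.55-fold lower (log2 difference -0.64, SE 0.16, edgeR adjusted p = 0.045, or 0.0203 to 0.142 with 1 library left out). Kifc1, a minus-end motor that focuses spindle poles, had 67.5, 54.8 and 63.1 CPM in Control 1 to 3 and 36.9, 28.9 and 45.5 CPM in PTN 1 to 3 and was 1.67-fold lower (log2 difference -0.74, SE 0.19, edgeR adjusted p = 0.0479, or 0.0153 to 0.136 with 1 library left out). These 3 kinesins ran in the same order within PTN, with PTN 2 lowest and PTN 3 highest.

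The other 6 kinesins, Kif4, Kif11, Kif14, Kif15, Kif20b and Kif23, all overlapped, with edgeR adjusted p of 0.263 to 0.972. Kif15, which slides spindle microtubules, had 18.8, 34.1 and 29.7 CPM in Control 1 to 3 and 39.8, 24.2 and 17.4 CPM in PTN 1 to 3. It was highest in PTN 1 and lowest in PTN 3, with Control 1 nearly as low (log2 difference -0.02, SE 0.32, edgeR adjusted p = 0.972).

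None of the 8 other genes of the spindle and of cytokinesis was called, although all 8 had negative log2 fold changes (median -0.30). At an unadjusted p under 0.05 there was 1 (12.5%, beside 27% of all tested genes), and the DESeq2 Wald test called the same gene, Racgap1. Racgap1, of the centralspindlin complex, had 192, 178 and 195 CPM in Control 1 to 3 and 129.7, 107 and 152 CPM in PTN 1 to 3. These values did not overlap and differed by 1.45-fold (log2 difference -0.54, SE 0.16, edgeR adjusted p = 0.0757). Nusap1, a microtubule-bundling protein, had 55, 104 and 82.9 CPM in Control 1 to 3 and 98.4, 71 and 50.6 CPM in PTN 1 to 3, with Control 1 and PTN 3 low and the groups overlapping (log2 difference -0.13, SE 0.29, edgeR adjusted p = 0.772). Tpx2, Prc1, Ect2, Anln, Hmmr and Aspm overlapped too, with edgeR adjusted p of 0.21 to 0.771.

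Of the 4 genes of chromosome structure none was called (0 also at an unadjusted p under 0.05), and their median was 0.15. Mki67, the Ki-67 surfactant of mitotic chromosomes and a common marker of proliferation, had 174, 363 and 366 CPM in Control 1 to 3 and 521, 283 and 125 CPM in PTN 1 to 3. Control 1 was the lowest Control library by far, PTN 1 was the highest of all 6 and PTN 3 the lowest, so the groups overlapped entirely (log2 difference 0.04, SE 0.47, edgeR adjusted p = 0.959). The sign of that change was negative with upper-quartile scaling, with voom, with GC or length trends removed and without Control 1 or PTN 1. Top2a, the topoisomerase that untangles sister chromatids, had 288, 537 and 439.9 CPM in Control 1 to 3 and 469, 299 and 251 CPM in PTN 1 to 3, where Control 1 was again the low Control library (log2 difference -0.31, SE 0.28, edgeR adjusted p = 0.48). The condensin subunits Smc2 and Smc4 had log2 fold changes of 0.31 and 0.26 (edgeR adjusted p = 0.619 and 0.662), both overlapped, and both signs turned negative with the GC trend removed and without PTN 1.

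Neither transcription factor of the module was called by edgeR, but in both all PTN values lay below Control (17.1% of all tested genes). The DESeq2 Wald test called Foxm1 (DESeq2 adjusted p = 0.0111) and not Mybl2 (DESeq2 adjusted p = 0.103). Foxm1 had 128, 101 and 126 CPM in Control 1 to 3 and 73.7, 61 and 88.4 CPM in PTN 1 to 3 and differed by 1.59-fold (log2 difference -0.67, SE 0.18, edgeR adjusted p = 0.0561). Mybl2 had 35.3, 27.3 and 33.3 CPM in Control 1 to 3 and 23.2, 16.3 and 26.5 CPM in PTN 1 to 3 and differed by 1.45-fold (log2 difference -0.54, SE 0.21, edgeR adjusted p = 0.142), with PTN 3 close under Control 2. In both genes the order within PTN was PTN 2 lowest and PTN 3 highest, as in Kif22, Kif18b and Kifc1.

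**Figure D3:**
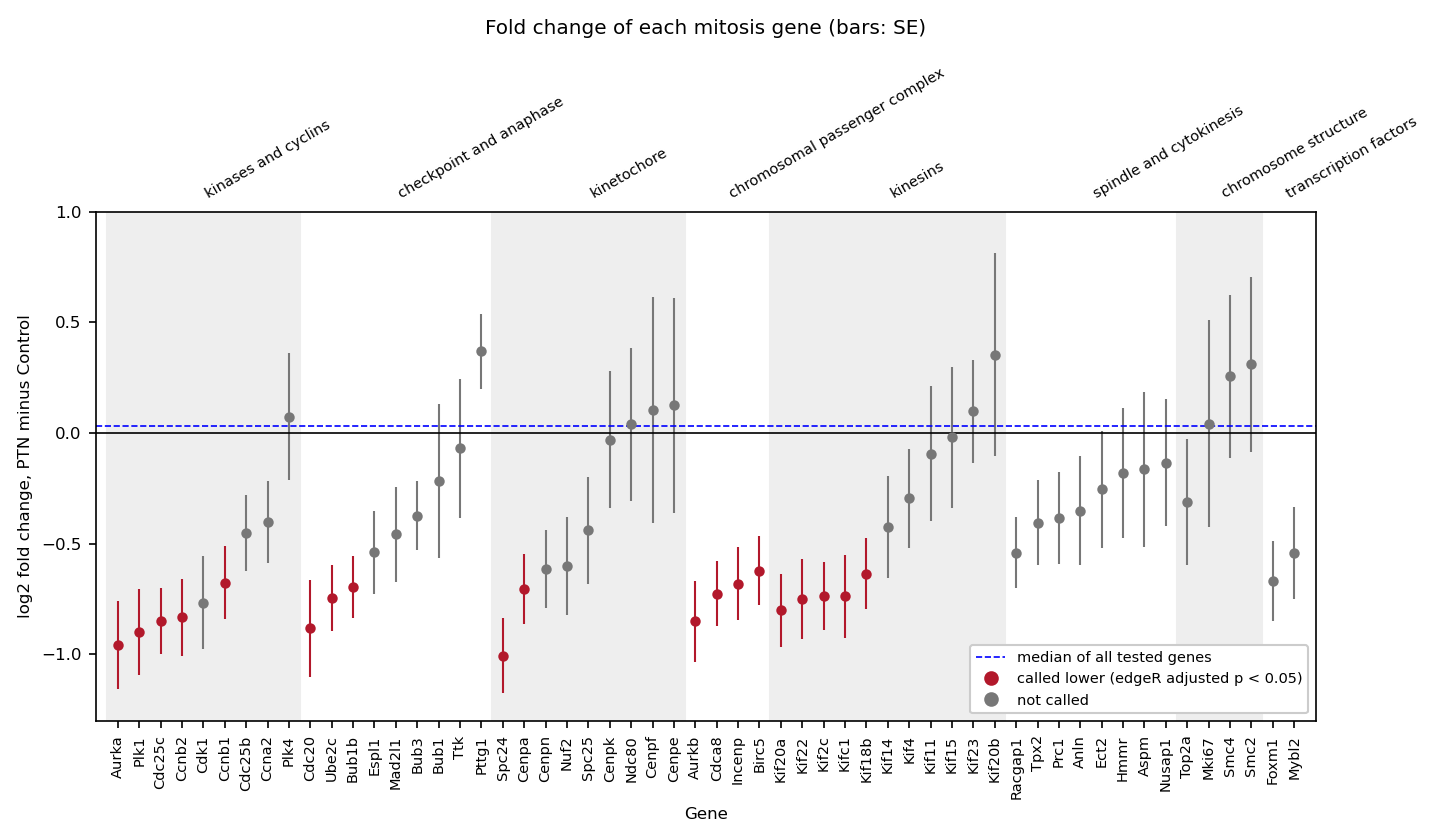
Log2 fold change, PTN minus Control, of each of the 56 genes with its SE, ordered within 8 functional groups; red points are called lower by edgeR, grey points are not called, and the dashed line is the median of all tested genes (0.03). The 4 genes of the chromosomal passenger complex are all red, and the wide bars belong to uncalled genes such as Cenpe, Cenpf, Kif20b and Mki67.

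Per length, the most abundant members in Control were Ube2c at 121 ± 8.32 FPKM and Cdk1 at 119 ± 4.18 FPKM (SD, n = 3 each), which differed by less than their spread. Cdc20 (90.2 ± 15.5), Ccnb1 (81.8 ± 7.67) and Top2a (80.8 ± 23.5) followed within each other's spread, and Kif20b (3.91 ± 1.16) and Kif14 (3.79 ± 0.45) were the least abundant on this FPKM scale. In PTN the first 2 averaged 71.8 ± 8.63 and 67.7 ± 18.9 FPKM. The order of levels is a description, since FPKM depends on the transcript lengths the authors used.

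The split between called and uncalled members ran along the base composition of their transcripts. Called members had a median GC content of 52.5% and a median length of 2191 bases, and the others 44.1% and 4086 bases, by the longest protein-coding transcript of each gene in GENCODE M21 (GRCm38). Of 21 members under 45% GC 1 was called (Ccnb1), of 17 members from 45% to 50% 5 were, and of 18 members at 50% or more 13 were. Over all tested genes the shares called lower in these ranges were 0.653%, 2.24% and 4.59%. The median log2 fold changes of members were -0.09, -0.43 and -0.73, and those of all tested genes 0.33, 0.08 and -0.14. Both the members and the rest of the table were thus lower at high GC, and in each range the members' median lay below that of all genes. The ranges were set after the values had been seen.

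Libraries of one group also differed from each other along GC. Across the 56 members, which share libraries and are not independent, Pearson's r between GC content and the log2 difference within a group was 0.78 for Control 1 minus the other Control libraries. It was -0.73 for PTN 1 and 0.73 for PTN 3, each minus the other PTN libraries, and -0.71 for PTN minus Control. Across 13149 tested genes with a known transcript the same values were 0.72, -0.58, 0.60 and -0.29. Under 45% GC, Control 1 was the lowest Control library for 20 of 21 members, PTN 1 the highest PTN library for 20 and PTN 3 the lowest for 17. The libraries of Cenpf, Ttk and Kif15, all under 45% GC, and of Mki67 (46.6%) stood in this order. Transcript length showed weaker correlations of the same kind (r = 0.46 with PTN minus Control across members).

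**Figure D4:**
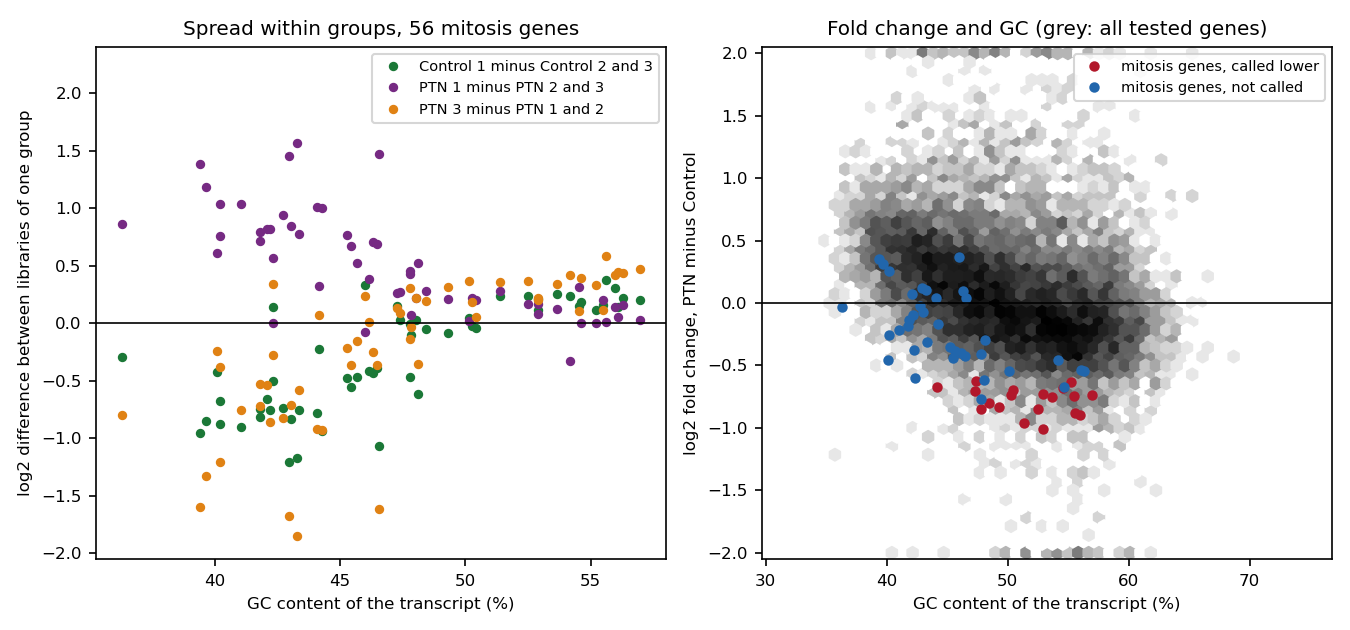
Left: log2 difference between libraries of one group for each of the 56 genes against the GC content of its transcript (percent), with green for Control 1 minus Control 2 and 3, purple for PTN 1 minus PTN 2 and 3 and orange for PTN 3 minus PTN 1 and 2. Right: log2 fold change, PTN minus Control, against GC content, with all tested genes in grey (values beyond the axis drawn at its edge), called members in red and uncalled members in blue; differences within groups are widest at low GC, and 18 of the 19 red points lie at 45% GC or more.

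When smooth trends with length and GC were removed from each library before the same edgeR test, an alternative chosen after the data had been seen, 35 of 56 members were called lower and 0 higher. By construction this also removes any true difference between the groups that follows length or GC. All 19 genes called before were among the 35, and 55 of 56 log2 fold changes were negative, Pttg1 being the exception at 0.40. The median of the members was -0.57, beside -0.03 over all tested genes, of which 7.79% were called lower. By group the calls were 8 of 9 kinases and cyclins, 5 of 9 checkpoint and anaphase genes, 4 of 9 kinetochore genes, 4 of 4 passenger complex genes, 7 of 11 kinesins, 5 of 8 spindle and cytokinesis genes, 1 of 4 chromosome structure genes and 1 of 2 transcription factors.

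The 16 genes added were Ccna2, Cdc25b, Cdk1, Cenpn, Ect2, Espl1, Foxm1, Hmmr, Kif11, Kif14, Mad2l1, Nuf2, Prc1, Racgap1, Top2a and Tpx2. In this fit Cdk1 was at -0.73 ± 0.17 SE, edgeR adjusted p = 0.0279, Foxm1 at -0.63 ± 0.13 SE, edgeR adjusted p = 0.0172, Nuf2 at -0.83 ± 0.12 SE, edgeR adjusted p = 0.00448 and Top2a at -0.69 ± 0.15 SE, edgeR adjusted p = 0.0202, as log2 fold changes. Mki67 (-0.37 ± 0.38 SE, edgeR adjusted p = 0.521) and Cenpf (-0.47 ± 0.35 SE, edgeR adjusted p = 0.379) were still not called. With the GC trend alone removed 34 members were called (60.7%, beside 8.56% of all tested genes called lower). With the length trend alone there were 19 (33.9%, beside 3.40%), of which 17 were among the first 19. A narrower check, also added later, left out both Control 1 and PTN 3 and called 19 members lower. That was 33.9%, beside 4.58% of all tested genes, where all libraries gave 3.06%. Of these, 17 were the same, with Birc5 and Incenp lost and Foxm1 and Racgap1 gained.

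**Figure D5:**
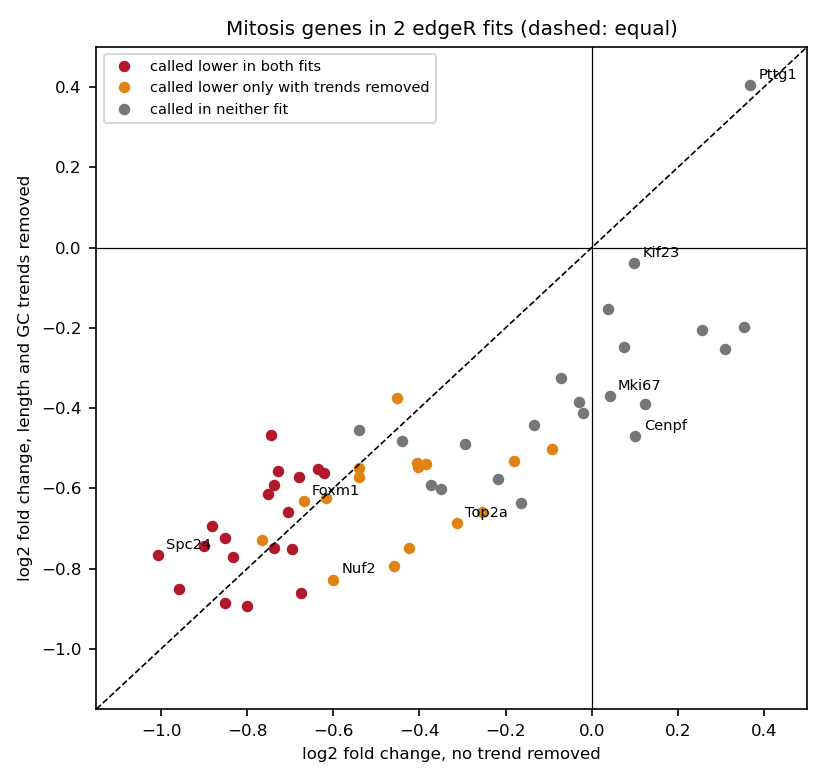
Log2 fold change of each of the 56 genes without any trend removed (horizontal) and with trends in transcript length and GC content removed from each library (vertical), the dashed line marking equal values. Red points are called lower in both fits, orange points only with the trends removed and grey points in neither; all points except Pttg1 lie below 0 on the vertical axis, Kif23 nearest to it.

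The number of calls depended on single libraries. Without PTN 3 there were 25 calls (44.6%, beside 6.79% of all tested genes called lower), all 19 among them. Without PTN 2 there were 11 (19.6%, beside 3.35%). Without PTN 1, Bub1b, Cdc25c, Kif20a, Spc24 and Ube2c were called (8.93%, beside 1.20%). Cdc25c and Spc24 were called without Control 1 (3.57%, beside 0.990%), and Aurka, Plk1 and Spc24 without Control 2 (5.36%, beside 1.29%). Only Spc24 was called without Control 3 (1.79%, beside 0.975%). No member was called higher in any of these 6 fits, and the median of the members ranged from -0.62 without PTN 1 to -0.33 without PTN 2. Each such fit has 1 residual degree of freedom fewer, and calls over all genes also moved, from 130 lower without Control 3 to 904 without PTN 3, against 403 with all libraries.

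Of 136 mitosis genes outside the 56, listed with earlier results known, 13 were called lower (9.56%) and 0 higher, with a median of -0.26. Over all tested genes 3.06% were called lower and 4.93% higher. The lower calls numbered 3, 4 and 1 without Control 1, Control 2 and Control 3 (2.21%, 2.94% and 0.735%, beside 0.990%, 1.29% and 0.975% of all tested genes). They numbered 5, 7 and 27 without PTN 1, PTN 2 and PTN 3 (3.68%, 5.15% and 19.9%, beside 1.20%, 3.35% and 6.79%). Without PTN 3 there were also 3 calls higher, beside 1273 over all tested genes. Without Control 1 and PTN 3 together 24 were lower (17.6%, beside 4.58% of all tested genes) and 1 was higher, beside 866 over all tested genes. Among 38 other kinetochore and centromere genes 4 were called, including the CENP-A chaperone Hjurp (1.67-fold lower, edgeR adjusted p = 0.021), the centrosomal kinase Nek2 (1.72-fold lower, edgeR adjusted p = 0.0342) and Cenpx (1.59-fold lower, edgeR adjusted p = 0.0432). Among 32 other cytokinesis, spindle and centrosome genes 4 were called, including the spindle protein Spag5 (1.85-fold lower, edgeR adjusted p = 0.00684), Troap (1.98-fold lower, edgeR adjusted p = 0.0176) and Sapcd2 (1.88-fold lower, edgeR adjusted p = 0.0238).

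Of 28 other regulators of mitotic entry and exit 2 were called, Cdca3 (1.76-fold lower, edgeR adjusted p = 0.0265) and the kinase gene Pbk (1.62-fold lower, edgeR adjusted p = 0.0452). In the list of 17 other condensin and cohesin genes 3 were called. These were Cdca2 (1.92-fold lower, edgeR adjusted p = 0.0213), which encodes Repo-Man, a phosphatase-targeting protein of chromatin and no subunit of either complex, the condensin subunit Ncapd2 (1.78-fold lower, edgeR adjusted p = 0.0256) and Cdca5, which encodes sororin (1.79-fold lower, edgeR adjusted p = 0.0300). Of 21 genes of MuvB, DREAM and the E2F factors, the transcription machinery upstream of the module, 0 were called by edgeR. An unadjusted p under 0.05 was found for 4 (19.0%), a smaller share than over all tested genes (27%). The smallest adjusted p there was that of E2f8, 0.0685. With length and GC trends removed 41 of the 136 genes were called lower (30.1%, beside 7.79% of all tested genes).

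Reads of 10 members can be shared with a gene that overlaps their exons in GENCODE M21, and whether the counting used strand is not stated in the sources used here. The overlap was largest for Kif20a (31.8% of its exonic bases, with Cdc23 on the opposite strand), Ube2c (22.8%, with Tnnc2), Prc1 (21.8%, with Rccd1), Kif4 (15.1%, with Pdzd11) and Ccna2 (10.4%, with Exosc9). For Plk1 it was 7.09% and for Cdc20 2.96%. Cdc23 itself was not called (log2 fold change -0.13, edgeR adjusted p = 0.507). Expected counts were fractional in 6 libraries for Kif20a, Prc1, Kif4 and Ccna2 and in 0 for Ube2c. They were also fractional in 6 libraries for Kifc1, 2 for Spc24 and 1 each for Cenpk and Nusap1. Of these, Kifc1, Spc24 and Cenpk are not among the members with overlapping exons. How shared reads were assigned is not stated, so the values of these genes are uncertain to that extent.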

How the data were processed

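Total RNA from 6 libraries of mouse neural stem progenitor cells, 3 Control and 3 PTN, was made into cDNA libraries with a SMARTER mRNA kit, per the labels' protocols. The authors deposited expected counts per gene and FPKM values. The aligner, counter, build and strand setting are not stated in the sources used here. These expected counts were fractional for 8 members, by more than 0.005, and were rounded. FPKM, as deposited, was used for levels per length, without a test, and to derive transcript length.

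Genes were filtered with filterByExpr (13161 of 22322 kept, all 56 members among them), scaled by TMM (factors 0.993 to 1.01) and tested with edgeR's quasi-likelihood test (edgeR 4.0.16, R 4.3.3), PTN minus Control, all 6 libraries, no covariate. The p-values were adjusted by Benjamini-Hochberg over all tested genes and called under 0.05. The SE is the size of the log2 fold change divided by the square root of F. The biological coefficient of variation was 0.208. The exact permutation test of 3 against 3 cannot go below p = 0.1 and was not used.

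The members, gene lists and alternatives were chosen with earlier results of these data known. Values per library were given for up to 4 called members of each group by smallest p (or, in a group with no call, its member of smallest p), the member of largest p, the member of highest FPKM, and Foxm1, Mybl2, Mki67 and Top2a. For Ccnb1, Cdk1, Cenpf, Kifc1 and Pttg1 they were added after the values were seen. Of each other list up to 3 called genes by smallest p were named. Alternatives were other scalings (DESeq2 size factors, upper quartile, totals), no filter or 1 CPM in 3 libraries, the DESeq2 Wald test (DESeq2 1.42.0), limma-voom (limma 3.58.1), a replicate block, other thresholds, a length trend (from counts over FPKM) and each library left out. Chosen after the data were seen were the GC trend, both trends together (natural splines per library) and leaving out Control 1 and PTN 3 together.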

Additional observations from a re-analysis of the deposited data

How the results depend on the processing

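The number of members called lower (19 with all libraries) was 19 to 23 under other scalings, filters, tools and an adjusted p under 0.1, and 0 were called higher under any alternative run. It was 1 when a call also needed a log2 change of 1 or more in size (Spc24), 34 with the GC trend removed, 35 with length and GC trends removed, and 1 to 25 over the fits without 1 library. The median of the members stayed between -0.62 and -0.33. With the replicate block 7 members were called (Aurka, Aurkb, Ccnb2, Cdc20, Kif20a, Plk1 and Spc24) and 272 genes in all were called lower. The deviations of same-numbered libraries from their group means correlated at -0.51, 0.36 and -0.005 over all genes, and Control 1 went most with PTN 3 (0.49). Such deviations also followed transcript GC, so these correlations cannot show whether same-numbered libraries shared a source. Over all genes, 403 were called lower, but 774 by the DESeq2 Wald test, 209 at that fold, 824 at an adjusted p under 0.1, 1127 with the GC trend removed and 1025 with both trends removed.

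Of the 56 members 16 changed sign under at least 1 alternative, and 0 of the called ones did. Mki67 (0.04) was at -0.00557 with upper-quartile factors, -0.11 with voom, -0.13 with the replicate block, -0.38, -0.12 and -0.37 with the length, GC and both trends removed. In the same order of trends Plk4 (0.07) was at -0.030, -0.25 and -0.25, Cenpe (0.12) at -0.24, -0.20 and -0.39, and Cenpf (0.10) at -0.35, -0.22 and -0.47. With the block Cenpe was at -0.035 and Cenpf at -0.089, and with voom Cenpf was at -0.067. Ndc80 (0.04) was at -0.00820 with upper-quartile factors and -0.027 with the block. With the GC trend and with both trends removed, Ndc80 was at -0.22 and -0.15, Kif20b (0.35) at -0.13 and -0.20, Kif23 (0.10) at -0.066 and -0.039, Smc2 (0.31) at -0.14 and -0.25, and Smc4 (0.26) at -0.16 and -0.21. Cenpk (-0.03) was at 0.14 with the length trend removed and 0.081 without Control 1 and PTN 3 together.

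Over the fits without 1 library, Mki67 ran from -0.56 to 0.42, Plk4 from -0.26 to 0.25, Cenpe from -0.47 to 0.51, Cenpf from -0.53 to 0.51, Ndc80 from -0.38 to 0.30 and Cenpk from -0.40 to 0.21. Kif20b ran from -0.21 to 0.73, Kif23 from -0.18 to 0.25, Smc2 from -0.16 to 0.64 and Smc4 from -0.15 to 0.56. Those negative with all libraries were Ttk (-0.41 to 0.14), Kif15 (-0.40 to 0.22), Kif11 (-0.41 to 0.15), Nusap1 (-0.40 to 0.074), Aspm (-0.57 to 0.093) and Bub1 (-0.66 to 0.00948). For these changes the cause was not tested. Each member had at least 83 counts in every library, and each group had 3 libraries. The part of depth or of the number of libraries in these changes was not tested.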

Other observations

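Of 28 genes of S phase and DNA replication 3 were called lower (10.7%) and 0 higher, beside 3.06% and 4.93% of all tested genes. Log2 fold changes were negative for 27 (96.4%, median -0.43), beside 47.5% of all tested genes (median 0.03). Those called were Rrm1 and Rrm2, the subunits of ribonucleotide reductase, and Cdc45 of the replication fork. Rrm1 had 426, 466 and 464 CPM in Control 1 to 3 and 299.9, 227 and 289 CPM in PTN 1 to 3 and was 1.66-fold lower (edgeR adjusted p = 0.0262). Its groups did not overlap. In S phase 0 genes were called without Control 1, Control 2 or Control 3, where 0.990%, 1.29% and 0.975% of all tested genes were called lower. Without PTN 1, PTN 2 and PTN 3 there were 1, 2 and 9 (3.57%, 7.14% and 32.1%), all lower, beside 1.20%, 3.35% and 6.79% of all tested genes. With the replicate block 1 was called lower (3.57%, beside 2.07%).

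Among 15 genes of G1 cyclins and CDK inhibitors 3 were called higher (20%) and 1, Cdkn2c, lower (6.67%), beside 4.93% and 3.06% of all tested genes. The call of Cdkn2c was lost without a filter, with the replicate block and without any 1 library other than PTN 3. The calls higher numbered 2, 1 and 1 without Control 1, Control 2 and Control 3, beside 216, 232 and 201 over all tested genes. Without PTN 1, PTN 2 and PTN 3 they numbered 2, 5 and 3, beside 354, 666 and 1273. The G1 kinase gene Cdk6 had 13.1, 14.1 and 13.2 CPM in Control 1 to 3 and 38.6, 27 and 34.9 CPM in PTN 1 to 3 and was 2.49-fold higher (log2 difference 1.31, SE 0.18, edgeR adjusted p = 0.00515). The D-type cyclin gene Ccnd2 had 884, 1034 and 1068 CPM in Control 1 to 3 and 3108, 1318 and 2679 CPM in PTN 1 to 3 and was 2.38-fold higher (log2 difference 1.25, SE 0.29, edgeR adjusted p = 0.0355). In Ccnd2 PTN 2 lay far below the other PTN libraries and still above Control. The CDK inhibitor gene Cdkn2b had 39.9, 38.7 and 37 CPM in Control 1 to 3 and 62, 78.7 and 85.7 CPM in PTN 1 to 3 and was 1.96-fold higher (log2 difference 0.97, SE 0.16, edgeR adjusted p = 0.00941). After PTN the list thus held a kinase, a cyclin and an inhibitor among its higher genes, while Cdkn1a and Cdkn1b were not called (edgeR adjusted p = 0.518 and 0.291).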
